A study of Mus musculus with 12 samples.

Results

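The transcripts of 10 glucocorticoid response genes, Fkbp5, Tsc22d3, Sgk1, Nr3c1, Hsd11b1, Cdkn1a, Errfi1, Ddit4, Serpina6 and Zbtb16, were followed in mouse liver after vertical sleeve gastrectomy (VSG) and its 2 sham controls. They were chosen by symbol, as rows of the count table whose Ensembl identifier carries one of these names in the GENCODE annotation, and all 10 were found among 46078 genes. All 10 also passed the filter on low counts that left 13054 genes for testing. The liver libraries came from C57BL/6 mice of 21 weeks with diet-induced obesity (DIO), made obese on a high fat diet, and every group had an operation. Group VSG had most of the stomach removed. Group Sham-WM had a sham operation followed by food restriction that matched its weight to VSG. Group Sham-Ad lib had a sham operation and a return to unrestricted food.

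Each group had 4 mice with 1 poly(A) RNA library each, and libraries are named by animal: 3F, 4F, 6F and 10F for Sham-Ad lib, 2F, 9F, 15F and 16F for Sham-WM, and 1F, 8F, 11F and 18F for VSG. The 12 libraries held between 15122520 and 19384076 counts. All tests are edgeR's quasi-likelihood test with Benjamini-Hochberg adjustment over the 13054 genes, called at an adjusted p under 0.05, and levels are counts scaled to library size after TMM normalization (CPM). A bulk sample cannot tell fewer cells of a type from less RNA per cell. The index numbers in the library names fall into a separate run for each group, and any batch effect along them and the treatment cannot be told apart. A second field of the labels pairs animals and groups in another order, and under that grouping edgeR called no gene in any of the 3 comparisons, with 465 genes at an unadjusted p under 0.05 when VSG and 715 when Sham-WM was compared with Sham-Ad lib, and 158 between VSG and Sham-WM. By animal number, 7 of 11 tested core clock genes had no overlap between Sham-WM and Sham-Ad lib, against 17.6% of all genes. The list of these genes also holds the clock output genes Dbp and Tef. It was chosen with earlier results of these data known. Its count under the second field is not given here, so it cannot decide between the groupings.

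Glucocorticoids act through a nuclear receptor, the product of Nr3c1, which waits in the cytoplasm bound to heat shock protein 90 and its partner proteins. Once it binds hormone it moves to the nucleus, where it settles as a dimer on palindromic response elements near its target genes. The liver is one of its main targets: glucocorticoids promote gluconeogenesis and amino acid breakdown there, and the hormone is released by the adrenal gland in a daily rhythm and under stress or fasting. Within the 10 genes, Serpina6 encodes the plasma carrier of the hormone and Hsd11b1 the enzyme that regenerates active hormone inside the cell. Fkbp5 encodes a cochaperone that lowers the receptor's affinity for hormone. Fkbp5, Tsc22d3, Sgk1, Zbtb16, Errfi1, Ddit4 and Cdkn1a are genes that the receptor can induce.

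The promoter windows of the induced genes differ in whether they carry the receptor's element, so 3 of them are shown. RefSeq gives windows of 300 bases around annotated starts, 250 before and 50 after, on build GRCm38.p6, and 7 of the 10 genes matched, with 16 windows. Nr3c1, Serpina6 and Zbtb16 had no entry. Both strands were searched for the palindrome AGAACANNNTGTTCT, for a looser form GNACANNNTGTNC, for a single arm of it, AGAACA, and for the E-box CACGTG, the element of the clock proteins. The palindrome was found in 3 of 32851 windows (0.00913%), and 1 of them was a Sgk1 window. The looser form was in 0.475% of all windows and in that same Sgk1 window alone among the 16. In the Sgk1 window at chr10:21993640-21993939 (plus strand) the palindrome, whose fixed bases are in capitals, spans bases 62 to 76 and ends 175 bases before the start. Sgk1 has 6 such windows, and the counts per gene do not say which start was used.
Sgk1: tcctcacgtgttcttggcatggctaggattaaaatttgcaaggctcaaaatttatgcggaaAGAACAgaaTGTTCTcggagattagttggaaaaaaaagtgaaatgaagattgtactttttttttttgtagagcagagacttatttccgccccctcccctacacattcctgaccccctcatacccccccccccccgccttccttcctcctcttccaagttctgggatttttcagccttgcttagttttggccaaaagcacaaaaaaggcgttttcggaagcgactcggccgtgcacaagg
The single arm was in 19% of all windows and in 4 of the 16, of which 3 belong to Sgk1 and 1 to Tsc22d3. That Tsc22d3 window, chrX:140600473-140600772 (minus strand), holds it once, in capitals, on the opposite strand.
Tsc22d3: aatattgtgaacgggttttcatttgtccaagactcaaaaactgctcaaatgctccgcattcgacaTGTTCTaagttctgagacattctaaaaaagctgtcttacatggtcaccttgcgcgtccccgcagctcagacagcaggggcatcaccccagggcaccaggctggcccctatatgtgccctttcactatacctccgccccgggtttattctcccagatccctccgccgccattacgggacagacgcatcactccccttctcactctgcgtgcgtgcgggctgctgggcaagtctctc
The E-box was in 7.15% of all windows and in 2 of the 16. It stood once, in capitals, in the only Fkbp5 window, chr17:28486100-28486399 (minus strand), and once in the Sgk1 window above, where a single arm overlaps it.
Fkbp5: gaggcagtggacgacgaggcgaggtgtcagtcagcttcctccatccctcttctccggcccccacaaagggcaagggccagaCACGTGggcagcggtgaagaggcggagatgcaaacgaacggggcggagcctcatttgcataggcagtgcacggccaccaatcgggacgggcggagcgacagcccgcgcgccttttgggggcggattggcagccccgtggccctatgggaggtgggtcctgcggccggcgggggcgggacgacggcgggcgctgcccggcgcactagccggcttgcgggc
These are matches of letters and not measured sites of binding, and elements outside these windows of 300 bases were not searched.

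Per kilobase of exon, the 10 genes spanned a wide range of levels, from the hormone carrier at the top to the cell cycle inhibitor at the bottom. Over the 12 libraries Serpina6 had a mean level of 298 ± 71.6 CPM per kb (SD, n = 12) and Errfi1 of 268 ± 125 CPM per kb, and the ranges of these neighbours overlapped. Hsd11b1 followed at 129 ± 29.2 CPM per kb, and its lowest library, at 82.6 CPM per kb, was above the highest of Tsc22d3, at 70.1 CPM per kb. Tsc22d3 had 29.9 ± 19.4 CPM per kb and overlapped with the receptor gene Nr3c1, at 14.2 ± 1.90 CPM per kb. The lowest Nr3c1 library, at 10.9 CPM per kb, lay above the highest Fkbp5 library, at 8.72 CPM per kb. Below it, Fkbp5 (5.02 ± 1.76 CPM per kb), Ddit4 (4.94 ± 3.54 CPM per kb), Sgk1 (2.91 ± 1.25 CPM per kb), Zbtb16 (2.26 ± 1.72 CPM per kb) and Cdkn1a (1.25 ± 1.03 CPM per kb) overlapped with their neighbours in this order.

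**Figure D1:**
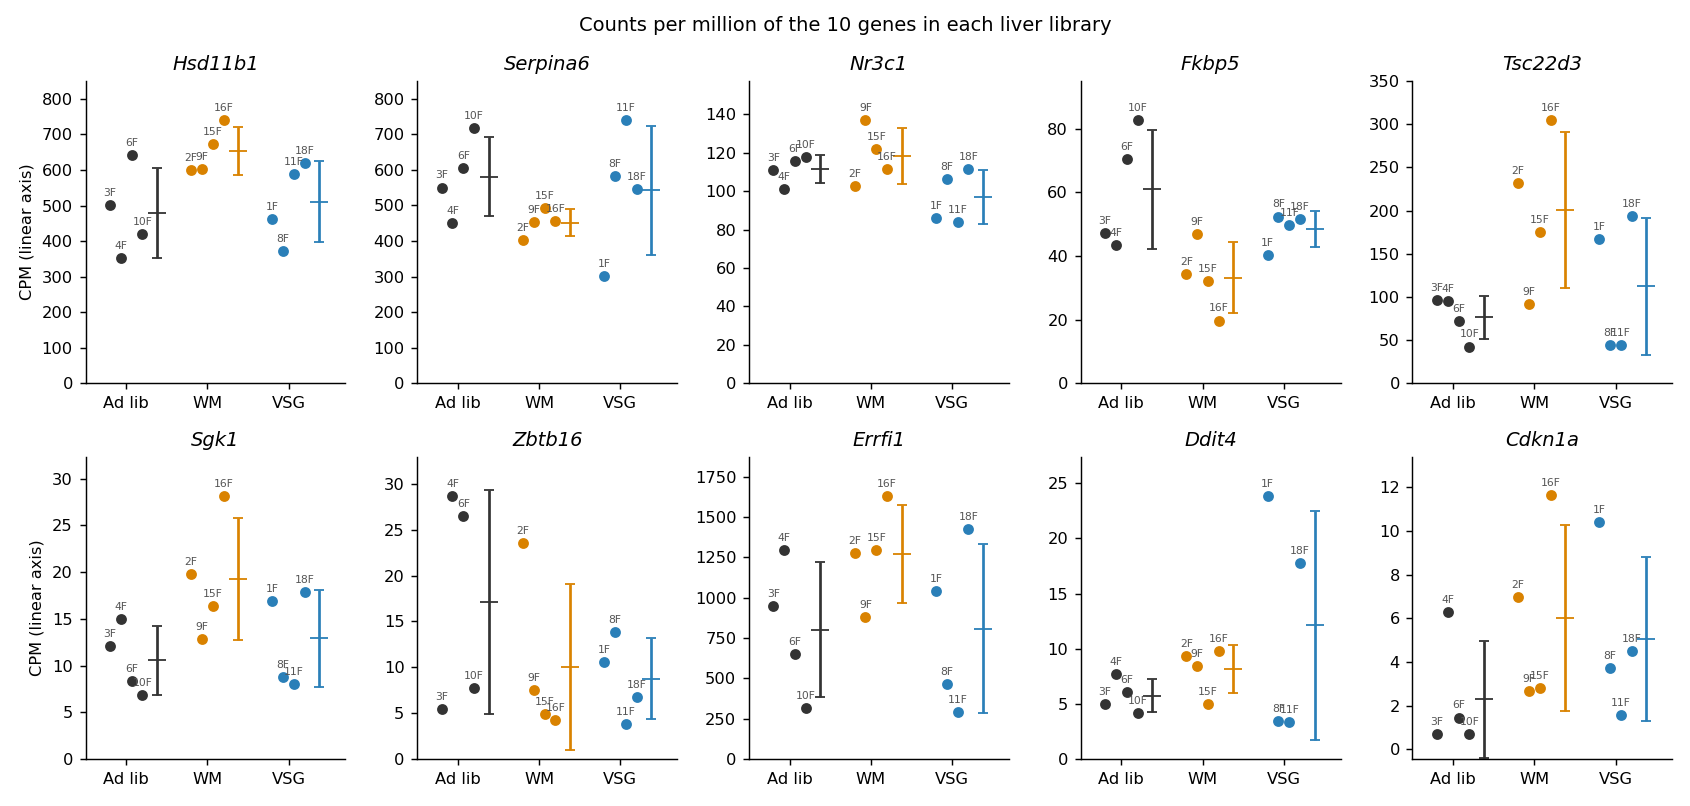
CPM of each gene (linear axis) in the 12 liver libraries, with 1 point per library named by animal, and the group mean with its SD (n = 4) beside the points. Fkbp5 reaches its lowest value, 19.7 CPM, in Sham-WM library 16F, where Tsc22d3, Sgk1, Errfi1 and Hsd11b1 are at their highest, and the SD bar of Cdkn1a in Sham-Ad lib extends below 0.

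The comparison of Sham-WM with Sham-Ad lib asks how the genes stood after weight loss by restriction. Fkbp5 was the only one of the 10 called, and it fell: its mean level was 33.2 ± 11.1 CPM (SD, n = 4) in Sham-WM against 61.0 ± 18.7 CPM in Sham-Ad lib. In this comparison 912 genes, 6.99% of those tested, were called, so 1 of 10 is close to the share of all genes. Without adjustment 4 of the 10 (Fkbp5, Tsc22d3, Sgk1 and Hsd11b1) had a p under 0.05, against 21.6% of all genes. None of the 10 had groups without overlap, against 17.6% of all genes. The median log2 fold change of the 10 was 0.47, with 7 above 0 and 3 below, beside 0.00079 over all genes tested.

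Fkbp5 (ENSMUSG00000024222, chromosome 17, 28399094 to 28517527, minus strand of mm10) had 47.2, 43.6, 70.6 and 82.6 CPM in Sham-Ad lib libraries 3F, 4F, 6F and 10F. The Sham-WM libraries 2F, 9F, 15F and 16F had 34.2, 46.9, 32.0 and 19.7 CPM. Library 9F thus lay inside the Sham-Ad lib range and the other 3 lay below it. In VSG libraries 1F, 8F, 11F and 18F the level was 40.1, 52.4, 49.7 and 51.7 CPM, the narrowest spread of the 3 groups and between both sham means. The log2 fold change of Sham-WM against Sham-Ad lib was -0.88 (SE 0.25, adjusted p = 0.0484), a fold of 0.545. The call stood close to the threshold: DESeq2 gave an adjusted p of 0.00939, while a fit of the 2 groups alone gave 0.0617. It held without library 4F, 9F or 11F and was lost without any 1 of the other 9, with adjusted p between 0.0216 and 0.139 and a log2 fold change between -1.09 and -0.69. Against Sham-WM, VSG had a log2 fold change of 0.55 (95% interval 0.018 to 1.07, adjusted p = 0.113), which was not called except without library 9F, where it was 0.76 (adjusted p = 0.0435).

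Tsc22d3 (ENSMUSG00000031431, X chromosome, 140539528 to 140600659), which encodes the leucine zipper protein GILZ, had the largest fitted fold of the 10 genes in this comparison, with a sign opposite to that of Fkbp5. Its Sham-Ad lib libraries 3F, 4F, 6F and 10F had 95.9, 95.03, 72.5 and 42.5 CPM. The Sham-WM libraries 2F, 9F, 15F and 16F had 232, 91.7, 175 and 304 CPM. Again 9F lay within the Sham-Ad lib range and the other 3 lay above it. The log2 fold change was 1.39 (SE 0.49, 95% interval 0.33 to 2.45) and was not called (adjusted p = 0.112), although the fit of these 2 groups alone called it (adjusted p = 0.0307). In VSG, 1F and 18F had 167 and 194 CPM and 8F and 11F had 44.4 and 44.0 CPM, so the group divided into a high and a low pair. Its difference from Sham-Ad lib was 0.55 on the log2 scale (95% interval -0.50 to 1.60) and from Sham-WM -0.84 (95% interval -1.89 to 0.21), and neither was called.

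Sgk1 (ENSMUSG00000019970, chromosome 10, 21882184 to 21999903), the serum and glucocorticoid regulated kinase, had 12.1, 15.0, 8.38 and 6.84 CPM in Sham-Ad lib libraries 3F, 4F, 6F and 10F. In Sham-WM libraries 2F, 9F, 15F and 16F it had 19.8, 12.9, 16.4 and 28.1 CPM. The groups overlapped through 9F and 4F. In VSG the level was again divided, with 16.9 and 17.9 CPM in 1F and 18F and 8.78 and 8.06 CPM in 8F and 11F. The log2 fold change of Sham-WM against Sham-Ad lib was 0.86 (SE 0.32, 95% interval 0.18 to 1.55, adjusted p = 0.127), and those of VSG were 0.29 against Sham-Ad lib (adjusted p = 0.605) and -0.58 against Sham-WM (adjusted p = 0.188). No alternative called Sgk1 in any comparison.

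Of the genes that set hormone supply, Hsd11b1 (ENSMUSG00000016194, chromosome 1, 193221634 to 193264075) had 502, 351, 644 and 419 CPM in Sham-Ad lib libraries 3F, 4F, 6F and 10F. The Sham-WM libraries 2F, 9F, 15F and 16F held 599, 603, 672 and 739 CPM, of which the lower 2 lay within the Sham-Ad lib range. VSG libraries 1F, 8F, 11F and 18F had 462, 373, 590 and 620 CPM. The log2 fold change of Sham-WM against Sham-Ad lib was 0.45 (SE 0.20, 95% interval 0.022 to 0.87, adjusted p = 0.206). With 2 factors of unwanted variation taken from the residuals (RUVr) it was 0.48 and called (adjusted p = 0.0299). That of VSG against Sham-WM was -0.35 (adjusted p = 0.196), and -0.37 with the same factors (adjusted p = 0.0424). The oppositely oriented gene Lamb3 overlaps Hsd11b1 and had at most 231 counts, against at least 6545 of Hsd11b1. Serpina6 (ENSMUSG00000060807, chromosome 12, 103646630 to 103657212), a liver-secreted protein, ranged from 450 to 718 CPM in Sham-Ad lib, from 403 to 494 CPM in Sham-WM and, in VSG, from 302 to 739 CPM. Its lowest value was that of VSG library 1F and its highest that of VSG library 11F. No difference of Serpina6 was called, with adjusted p of 0.382 or more.

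The receptor gene itself varied least over the 12 libraries, from 10.9 to 17.8 CPM per kb. Nr3c1 (ENSMUSG00000024431, chromosome 18) had 110.998, 101, 116 and 118 CPM in Sham-Ad lib libraries 3F, 4F, 6F and 10F and 103, 137, 122 and 111.4 CPM in Sham-WM libraries 2F, 9F, 15F and 16F. In VSG libraries 1F, 8F, 11F and 18F it had 86.0, 106.4, 84.1 and 111.7 CPM. The coefficient of variation was 6.69% for Sham-Ad lib, 12.4% for Sham-WM and 14.4% for VSG. The log2 fold change of Sham-WM against Sham-Ad lib was 0.085 (95% interval -0.18 to 0.35, adjusted p = 0.754). VSG against Sham-WM gave -0.28 (SE 0.12, 95% interval -0.55 to -0.018, adjusted p = 0.102), which was called with RUVr factors (-0.30, adjusted p = 0.0269) and in no other alternative.

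The remaining induced genes had wide spreads within groups. Errfi1 (ENSMUSG00000028967, chromosome 4, 150853919 to 150868892), an inhibitor of the epidermal growth factor receptor, had 948, 1296, 648 and 318 CPM in Sham-Ad lib libraries 3F, 4F, 6F and 10F and 1274, 883, 1298 and 1630 CPM in Sham-WM libraries 2F, 9F, 15F and 16F. VSG libraries 1F, 8F, 11F and 18F had 1041, 467, 289 and 1427 CPM, the same high and low pairs as for Tsc22d3 and Sgk1. Its log2 fold change was 0.66 for Sham-WM against Sham-Ad lib (95% interval -0.34 to 1.67, adjusted p = 0.455) and 0.0070 for VSG against Sham-Ad lib (95% interval -0.996 to 1.01, adjusted p = 0.994). Zbtb16 (ENSMUSG00000066687, chromosome 9, 48654297 to 48836222), a zinc finger repressor, had 5.41, 28.7, 26.5 and 7.72 CPM in Sham-Ad lib libraries 3F, 4F, 6F and 10F. In Sham-WM, library 2F had 23.5 CPM while the others lay between 4.28 and 7.53 CPM, and VSG ranged from 3.84 to 13.9 CPM. Its log2 fold changes against Sham-Ad lib were -0.76 for Sham-WM (95% interval -2.08 to 0.56) and -0.95 for VSG (95% interval -2.29 to 0.38).

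Ddit4 and Cdkn1a were the genes with the highest fitted folds of VSG against Sham-Ad lib, and both had few reads. Ddit4 (ENSMUSG00000020108, chromosome 10, 59949669 to 59951834), which restrains the growth kinase complex mTORC1, had 4.97, 7.73, 6.11 and 4.20 CPM in Sham-Ad lib libraries 3F, 4F, 6F and 10F. VSG libraries 1F and 18F held 23.8 and 17.8 CPM, above every sham library, while 8F and 11F held 3.47 and 3.31 CPM, below every sham library. The log2 fold change was 1.07 (SE 0.53, 95% interval -0.066 to 2.21, adjusted p = 0.232), and it was 0.52 without 1F. In Sham-WM the gene ranged from 4.998 to 9.79 CPM. Cdkn1a (ENSMUSG00000023067, chromosome 17, 29090976 to 29100727), a cyclin-dependent kinase inhibitor that p53 also induces, had between 11 and 207 counts per library. It had 0.725, 6.28, 1.46 and 0.690 CPM in Sham-Ad lib libraries 3F, 4F, 6F and 10F, from 2.66 to 11.7 CPM in Sham-WM and from 1.58 to 10.4 CPM in VSG. Its log2 fold change of Sham-WM against Sham-Ad lib was 1.38 (95% interval -0.19 to 2.94, adjusted p = 0.297), and without 4F, the highest Sham-Ad lib library, it was 2.63 and called (adjusted p = 0.0485).

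**Figure D2:**
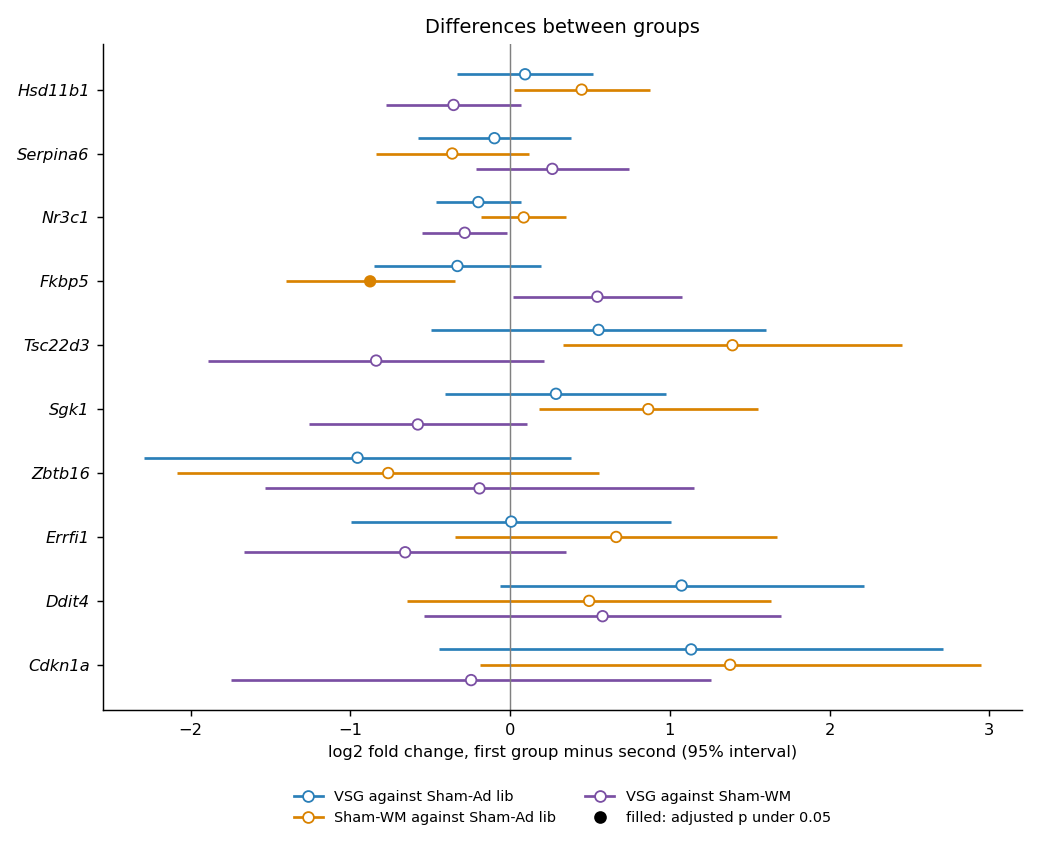
Log2 fold change of each gene in the 3 comparisons (points), first group minus second, with its unadjusted 95% interval (lines). Filled points mark an adjusted p under 0.05, which only Fkbp5 reached, in Sham-WM against Sham-Ad lib, at -0.88.

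The comparison of VSG with Sham-Ad lib takes the operation together with its weight loss, against sham-operated obese mice on unrestricted food. None of the 10 genes was called by edgeR or by DESeq2, none had an unadjusted p under 0.05 in edgeR, and none had groups without overlap. Among all genes, 0.751% were called, 24.1% had an unadjusted p under 0.05 and 9.21% had no overlap. The median log2 fold change of the 10 was 0.050, with 6 above 0 and 4 below, beside 0.028 over all genes. The 95% intervals were widest for Cdkn1a (-0.44 to 2.71), Zbtb16 (-2.29 to 0.38) and Ddit4 (-0.066 to 2.21). They were narrower for Fkbp5 (-0.85 to 0.19), Hsd11b1 (-0.33 to 0.52) and Nr3c1 (-0.46 to 0.067).

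The comparison of VSG with Sham-WM asks how surgery differed from restriction at matched weight. Again none of the 10 was called by edgeR or by DESeq2, although 26.9% of all genes were called by edgeR. An unadjusted p under 0.05 was given for 2 of the 10, Fkbp5 and Nr3c1, against 40.4% of all genes, and none of the 10 had groups without overlap, against 26.2%. The median log2 fold change of the 10 was -0.26, with 3 above 0 and 7 below, beside 0.028 over all genes. VSG and Sham-WM were each compared with the same Sham-Ad lib libraries, so those values are not independent.

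Across libraries several of the genes varied together, within the groups as well as between them. Errfi1, Tsc22d3 and Sgk1 had their 4 lowest values in the same libraries, 6F and 10F of Sham-Ad lib and 8F and 11F of VSG, and all 3 were highest in 16F of Sham-WM. Over the 12 libraries, Pearson's r of log2 CPM was 0.96 for Tsc22d3 and Sgk1 (Spearman's rho 0.97), 0.92 for Sgk1 and Errfi1 and 0.91 for Tsc22d3 and Errfi1. With each group's mean subtracted it was 0.94, 0.93 and 0.90, and without the 2 libraries farthest from the median of the first gene it was 0.94, 0.90 and 0.91. Ddit4 also went with Tsc22d3 (r = 0.72) and Cdkn1a with Sgk1 (r = 0.79).

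Fkbp5 ran the other way. Its r was -0.87 with Sgk1 (rho -0.79) and -0.78 with Tsc22d3 (rho -0.78), and -0.78 and -0.63 with group means subtracted. Serpina6 was also negative with Sgk1 (r = -0.73), Tsc22d3 (r = -0.70) and Ddit4 (r = -0.77), and positive with Fkbp5 (r = 0.57). Nr3c1 had r between -0.29 and 0.27 with the other 9, and Zbtb16 between -0.43 and 0.27. With group means subtracted these ranges were wider. Nr3c1 then ran from -0.41 with Cdkn1a to 0.56 with Fkbp5, and Zbtb16 from -0.45 with Serpina6 to 0.55 with Cdkn1a. These coefficients describe 45 pairs in the same 12 libraries, which share their normalization and depth, and no test was made of them. Library 11F had the lowest total (15122520) and the lowest TMM factor (0.879), and 10F had 16859076 and 0.946. Libraries 6F and 8F had totals of 18297907 and 19055615 and factors of 1.01 and 1.03. Any part of depth or normalization in these patterns was not tested.

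**Figure D3:**
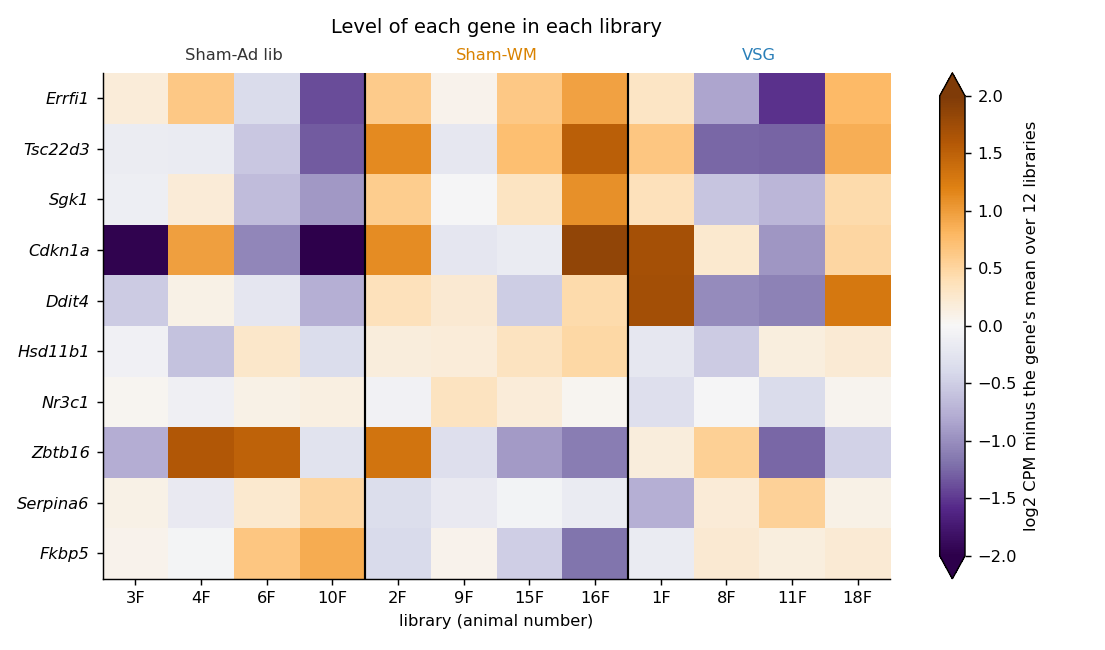
Log2 CPM of each gene in each library minus the gene's mean over the 12 libraries (colour), with libraries ordered by group and named by animal. Errfi1, Tsc22d3 and Sgk1 are low together in 6F, 10F, 8F and 11F and high together in 16F, while Fkbp5 is highest in 10F and lowest in 16F.

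**Figure D4:**
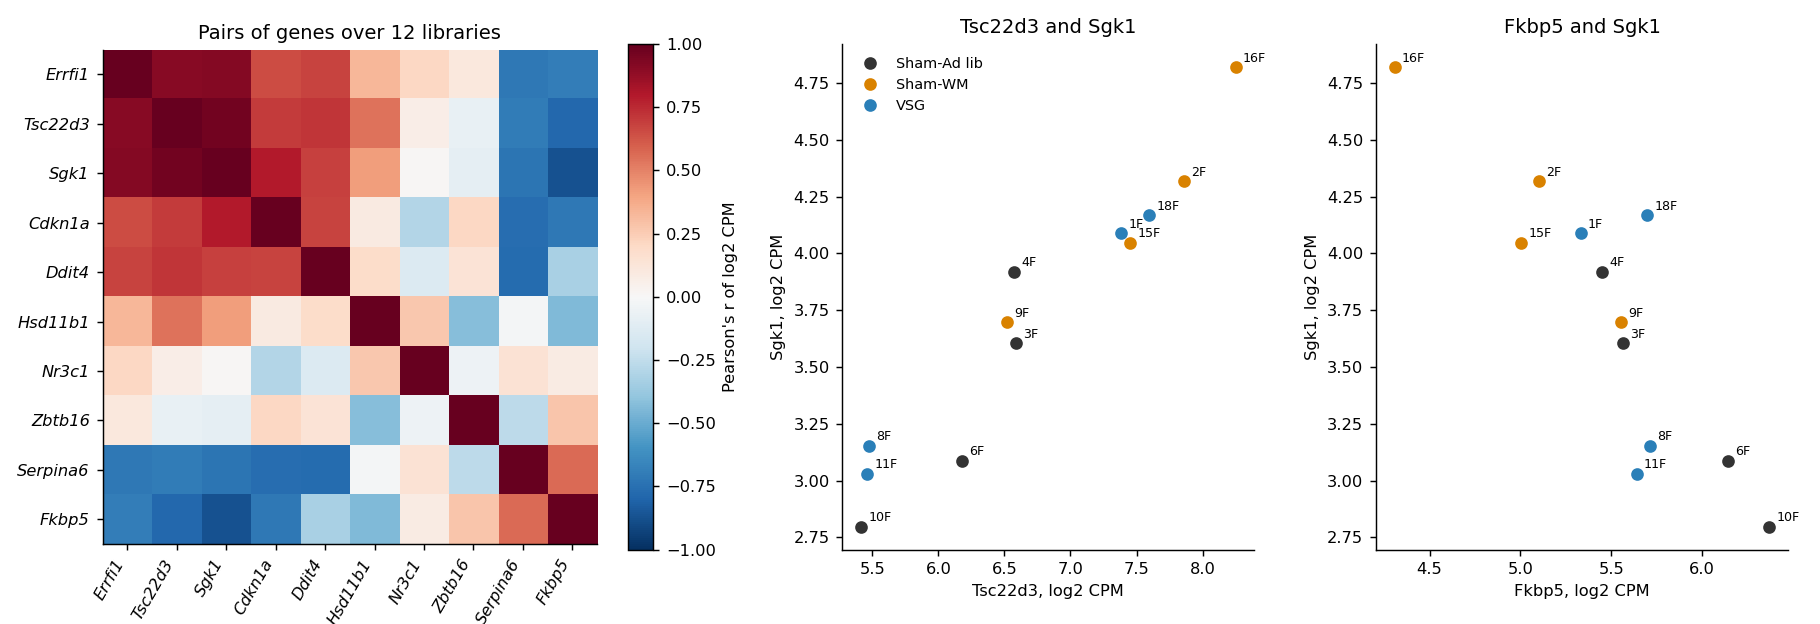
Pearson's r of log2 CPM for each pair of the 10 genes over 12 libraries (left, colour), and the library values of Sgk1 against Tsc22d3 and against Fkbp5 on log2 CPM axes (middle and right, points coloured by group). Sgk1 lies on a rising line with Tsc22d3 (r = 0.96) and a falling one with Fkbp5 (r = -0.87), and libraries of the 3 groups intermix on both.

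Among all tested genes, the 5 whose log2 CPM was most like that of Tsc22d3 over the 12 libraries were Sgk1 (r = 0.96), Proser2 (0.93), Safb (0.92), Errfi1 (0.91) and Vasn (0.91). Thus 2 of the 5 nearest were themselves among the 10 genes. For Fkbp5 the 5 nearest were Tfap4 (r = 0.93), Sun2 (0.93), Yipf4 (0.92), Tbc1d30 (0.91) and Fmo4 (0.91), and none was among the 10. With group means subtracted these values lay between 0.84 and 0.94 for both genes.

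Other target genes of the receptor were examined as a list of 20, all of which passed the filter. In Sham-WM against Sham-Ad lib 3 were higher, 3 were lower and 14 were not called, beside 6.99% of all genes called, with a median log2 fold change of -0.40 against 0.00079 over all genes. The metallothioneins Mt1 and Mt2, small metal-binding proteins that glucocorticoids, zinc and inflammation can each induce, fell by 5.35 (SE 0.65, adjusted p = 0.000453) and 6.27 (SE 0.76, adjusted p = 0.000453) on the log2 scale. Mt1 ranged from 49.3 to 520 CPM in Sham-Ad lib, from 3.11 to 9.38 CPM in Sham-WM and from 372 to 698 CPM in VSG, with no overlap between Sham-WM and either group. G6pc, the last enzyme of glucose release, rose by 2.13 (SE 0.47, adjusted p = 0.0170), a call lost without 10F or 16F. Pdk4, a kinase that restrains pyruvate oxidation in fasting, rose by 1.65 (SE 0.24, adjusted p = 0.00181). Dusp1, a phosphatase of stress kinases, rose by 1.56 (SE 0.36, adjusted p = 0.0211), lost without 3F, 6F, 10F, 15F or 16F. The third gene that fell, Klf9, a transcription factor named here after its values were seen, changed by -0.68 (SE 0.17, adjusted p = 0.0284) and lost its call in 6 of 12 fits with a library left out (3F, 4F, 6F, 2F, 15F or 16F). Without 16F the list had 3 calls in place of 6.

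In VSG against Sham-Ad lib 1 of these 20 was called, beside 0.751% of all genes: Nfkbia, the inhibitor of NF-kB, rose by 0.75 on the log2 scale (SE 0.15, adjusted p = 0.0459). This call held in 3 of 12 fits with a library left out (without 4F, 11F or 18F). In VSG against Sham-WM 6 were higher and 4 lower, beside 26.9% of all genes called, with a median log2 fold change of 0.16 against 0.028 over all genes. Mt1 rose by 6.65 (SE 0.68, adjusted p = 9.89e-05) and Mt2 by 7.75 (SE 0.80, adjusted p = 9.89e-05), Nfkbia rose by 1.03 (SE 0.15, adjusted p = 0.00107), and G6pc, Pdk4 and Dusp1 fell by 3.18, 2.30 and 1.51. These 6 calls between VSG and Sham-WM held with each library left out.

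Chaperones hold the receptor in its hormone-binding state, and coregulators act with it on its target genes. In Sham-WM against Sham-Ad lib the transcripts of 4 of 15 chaperones and coregulators were higher, none was lower and 11 were not called by edgeR, beside 6.99% of all genes called, with a median log2 fold change of 0.25. Those not called included the chaperone genes Hspa8 (0.36), Hspa4 (0.25) and Ptges3 (0.12), named after their values were seen. Bag1, also not called and named likewise, had a mean of 79.5 CPM in Sham-WM and 82.2 CPM in Sham-Ad lib. Over the 15 genes, log2 fold changes were above 0 for 11 and below 0 for 4. Hsp90aa1, the inducible heat shock protein 90, rose by 1.61 (SE 0.19, adjusted p = 0.000374) and had from 132 to 175 CPM in Sham-Ad lib, from 333 to 561 CPM in Sham-WM and from 166 to 276 CPM in VSG. Stip1, the adaptor between heat shock proteins 70 and 90, rose by 1.19 (SE 0.14, adjusted p = 0.000314). Fkbp4, the cochaperone that competes with the product of Fkbp5 for the receptor complex, rose by 0.94 (SE 0.14, adjusted p = 0.00177). It ranged from 252 to 317 CPM in Sham-WM and from 126 to 170 CPM in Sham-Ad lib, without overlap, while Fkbp5 was lower. Hsp90ab1 rose by 0.53 (SE 0.13, adjusted p = 0.0262), a call that 5 of 12 fits kept and that was lost without 3F, 4F, 6F, 10F, 2F, 15F or 16F. Against Sham-WM, VSG had 5 of the 15 lower and none higher, close to the 26.9% of all genes called. They were Hsp90aa1 (-1.22), Stip1 (-1.11), Fkbp4 (-0.99), the coactivator Ncoa3 (-0.49, lost without 15F) and the coactivator Ep300 (-0.52, lost without 3F, 4F, 6F, 10F, 15F, 16F, 1F or 11F). That count was 3 without 15F. In VSG against Sham-Ad lib none of the 15 was called by edgeR and 1 was called by DESeq2, with 2 at an unadjusted p under 0.05.

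A list of 8 further genes of glucocorticoid metabolism and the mineralocorticoid receptor had 7 tested members. Hsd11b2, the enzyme that inactivates the hormone, was left out with at most 1 count in any library. In Sham-WM against Sham-Ad lib none was higher and 3 were lower, beside 6.99% of all genes called: Nr3c2, the mineralocorticoid receptor, fell by 0.83 (SE 0.18, adjusted p = 0.0170), H6pd, which supplies the cofactor for the product of Hsd11b1, fell by 0.67 (SE 0.16, adjusted p = 0.0218), and Srd5a2, a steroid reductase, fell by 1.30 (SE 0.33, adjusted p = 0.0313). H6pd had from 512 to 612 CPM in Sham-Ad lib and from 317 to 438 CPM in Sham-WM, without overlap. Leaving out 10F or 2F reduced this count to 1, and leaving out 15F or 16F reduced it to 0. Between VSG and Sham-WM, H6pd (0.54) and Srd5a2 (0.96) were higher and Akr1d1 (-0.84) and the transporter gene Abcb1a (-1.07) were lower in VSG. That count of 4 of 7, beside 26.9% of all genes, was 0 without 15F or 16F, 1 without 2F and 2 without 1F or 8F. The Srd5a2 call (adjusted p = 0.0470) held in only 3 of 12 fits with a library left out. Those of H6pd, Akr1d1 and Abcb1a held in 8, 9 and 8 of 12. In VSG against Sham-Ad lib none was called by edgeR or DESeq2, with 1 at an unadjusted p under 0.05.

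Cdkn1a was set beside 10 other p53 targets. In Sham-WM against Sham-Ad lib 1 of them, beside 6.99% of all genes, was called: the cyclin Ccng1 fell by 0.49 (SE 0.12, adjusted p = 0.0330), a call lost without 3F, 4F, 6F, 2F, 9F, 15F or 16F. Compared with Sham-WM, VSG had 3 of them higher and none lower, close to the 26.9% of all genes called: Ccng1 by 0.62 (SE 0.12, adjusted p = 0.00415), the cell death gene Bax by 0.75 (SE 0.20, adjusted p = 0.0172, lost without 15F, 16F or 1F) and the receptor gene Eda2r by 2.26 (SE 0.53, adjusted p = 0.00862). For Cdkn1a that comparison gave -0.24 (95% interval -1.74 to 1.26). In VSG against Sham-Ad lib none of the 10 p53 targets was called by edgeR and 1 was called by DESeq2, with 2 at an unadjusted p under 0.05.

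**Figure D5:**
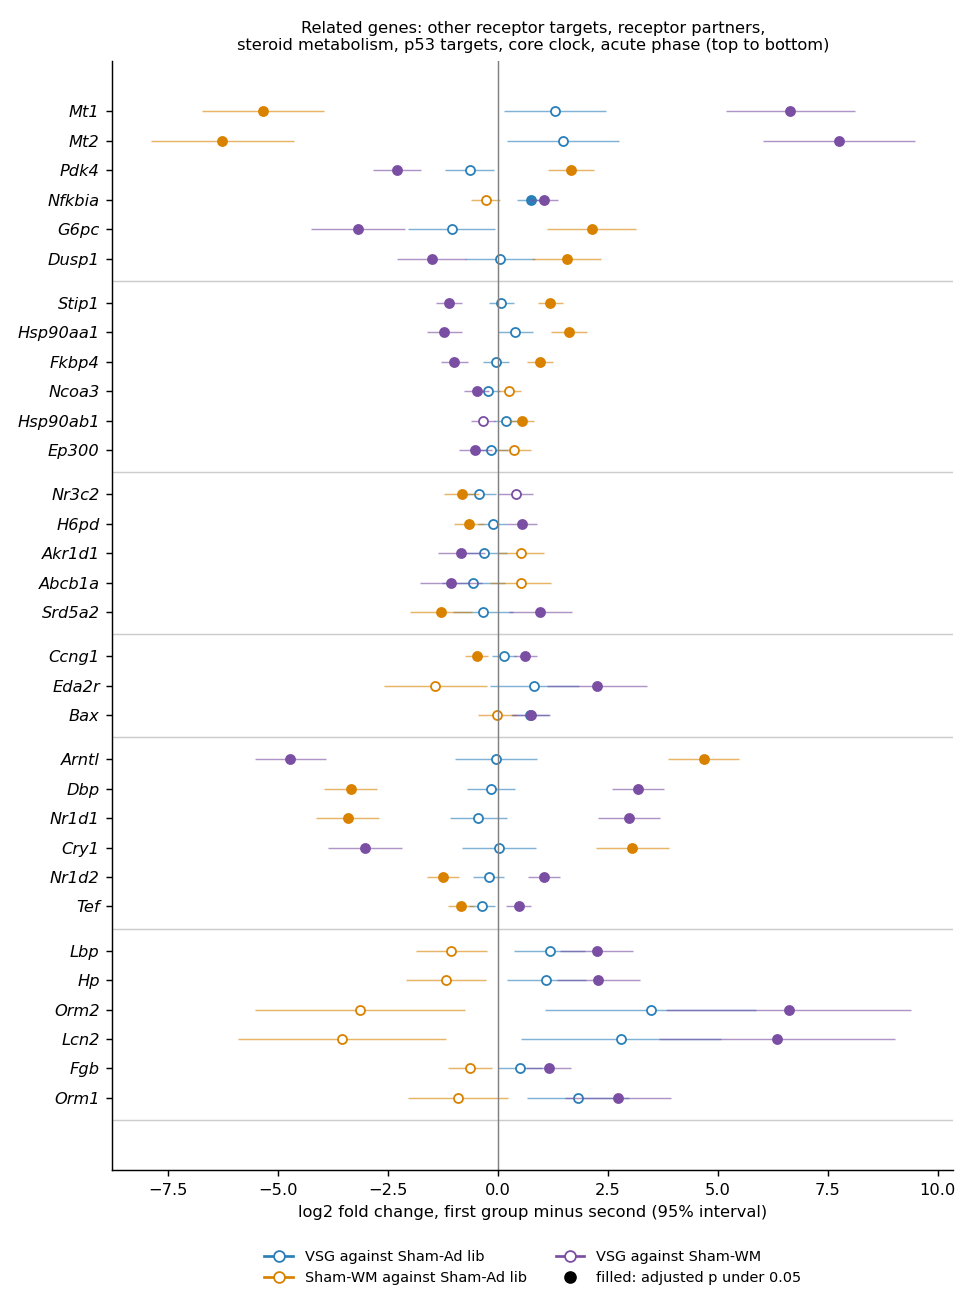
Log2 fold change, first group minus second, of up to 6 genes from each of 6 related lists in the 3 comparisons (points) with unadjusted 95% intervals (lines), lists separated by grey lines. Filled points mark an adjusted p under 0.05, and Arntl, Cry1, Stip1, Hsp90aa1 and Fkbp4 rise in Sham-WM while Mt1, Mt2, Dbp and Nr1d1 fall there.

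Other gene groups moved with the same groups, and their part in the values of the 10 genes was not tested. The core clock, which glucocorticoids and feeding time can both set, had 11 of 12 genes tested, and 3 were higher and 4 lower in Sham-WM against Sham-Ad lib, beside 6.99% of all genes called. Arntl rose by 4.68 (SE 0.38), from between 0.56 and 1.61 CPM to between 11.8 and 31.1 CPM, and Cry1 by 3.05 (SE 0.39), and Clock, named after its values were seen, by 0.85 (SE 0.21, lost without 4F, 6F, 10F, 15F or 16F). Nr1d1 fell by 3.42 (SE 0.34) and Nr1d2 by 1.26 (SE 0.17). Dbp and Tef, genes of clock output that the list also holds, fell by 3.35 (SE 0.28) and 0.84 (SE 0.14). In VSG against Sham-WM 4 were higher and 4 lower, beside 26.9% of all genes called, and in VSG against Sham-Ad lib none was called by edgeR or DESeq2, with 1 at an unadjusted p under 0.05.

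Acute phase genes, which glucocorticoids help cytokines to induce in hepatocytes, were tested as 14 genes. In Sham-WM against Sham-Ad lib 2 were lower, beside 6.99% of all genes called. They were Saa1 and Saa2, named after their values were seen, and this count was 0 without 4F, 10F, 9F, 15F or 16F and 1 without 6F, 1F or 8F. Relative to Sham-WM, VSG had 13 higher, beside 26.9% of all genes called, among them Lbp by 2.24 (SE 0.39), Hp by 2.28 (SE 0.44) and Orm2 by 6.61 (SE 1.30), though near-identical copies such as Orm1 and Orm2 or Saa1 and Saa2 may share reads. For VSG against Sham-Ad lib edgeR called none and DESeq2 called 4, with 9 at an unadjusted p under 0.05, and edgeR called 6 without 18F and 2 without 4F. The summed level of the list ran from 19701 to 58481 CPM in Sham-Ad lib, with 4F and 10F highest, from 18654 to 21953 CPM in Sham-WM, and from 31557 CPM in 18F to 106312 CPM in 1F. VSG libraries 1F and 18F, which were the high pair for Tsc22d3, Sgk1 and Errfi1, were thus the highest and the lowest of their group for these genes.

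Markers of other cells moved with VSG. The summed level of 7 Kupffer cell markers was between 459 and 1298 CPM in VSG, between 141 and 450 CPM in Sham-Ad lib and between 124 and 215 CPM in Sham-WM, and 2 of the 7 were called higher in VSG against Sham-Ad lib, beside 0.751% of all genes called. The sum of 7 neutrophil markers was between 22.3 and 639 CPM in VSG and at most 16.3 CPM in the other groups, with 3 of 5 tested markers called higher. Of 6 B cell markers 5 were tested and 1 was called. None of the T and NK cell, endothelial, stellate cell, cholangiocyte, red cell or hepatocyte markers was called by edgeR. Of these, 7 had an unadjusted p under 0.05, beside 24.1% of all genes, and 1 was called by DESeq2. The 7 included all 3 tested T and NK cell markers, higher in VSG by 1.08 to 1.49 on the log2 scale. Over all genes, the 98 calls of this comparison became between 0 and 3 without 3F, 6F, 10F, 2F, 9F, 15F, 16F or 1F. Without 6F, 2F, 9F or 1F it was 0 genes, so none of the marker calls held there. Without 3F, 10F, 15F or 16F at most 3 genes were called, so the marker calls did not all hold. In Sham-WM against Sham-Ad lib, where Fkbp5 fell, none of the Kupffer, neutrophil, T and NK, B, endothelial, cholangiocyte, red cell or hepatocyte markers was called by edgeR, with 1 endothelial and 1 red cell marker at an unadjusted p under 0.05 and 1 red cell marker called by DESeq2. Lrat, 1 of 7 stellate cell markers and named after its values were seen, was higher there by 0.82 (SE 0.22, adjusted p = 0.0384, lost without 3F, 4F, 6F, 10F, 15F, 16F or 8F). The sum of 8 hepatocyte markers was between 110683 and 134378 CPM in Sham-Ad lib, between 130114 and 161618 CPM in Sham-WM and between 88298 and 132140 CPM in VSG. The VSG libraries 1F, 8F and 11F lay below every sham library and 18F lay within the sham range. In VSG against Sham-WM 2 of the 8 were called lower and none higher, beside 26.9% of all genes called: Alb, named like the next after its values were seen, fell by 0.73 (SE 0.22, adjusted p = 0.0294, lost without 9F, 15F, 16F, 1F, 8F or 11F) and Cps1 by 0.83 (SE 0.22, adjusted p = 0.0174). Fold changes of the 8 were above 0 on the log2 scale for 4 and below 0 for 4. Their median was 0.015, beside 0.028 over all genes. Alb weighs most in the sum, with a mean of 64000 CPM in VSG and 106082 CPM in Sham-WM. The 4 adipocyte markers summed to at most 0.15 CPM, with Lep at 0 counts throughout.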

How the data were processed

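Poly(A) RNA from the livers of 12 mice was made into directional libraries and sequenced. Per the labels, the authors aligned reads to mm10 with TopHat2 2.1.1 and counted them per gene with featureCounts. The deposited values are raw counts, whole numbers per Ensembl gene that were not normalized, and whether counting used strand is not given in the sources used here. Of 46078 genes, 849 did not match GENCODE M21, which gave symbols, positions and exon lengths. Libraries were grouped by the animal number in their names.

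Totals ran from 15122520 to 19384076 counts, counted without molecular identifiers. With R 4.3.3 and edgeR 4.0.16, filterByExpr (minimum count 10, minimum total 15) kept 13054 genes, and 1 mean per group was fitted over all 12 libraries, scaled by TMM. The quasi-likelihood test gave 3 contrasts, with Benjamini-Hochberg adjustment over all tested genes and calls at 0.05. Standard errors were derived from the F statistic, and 95% intervals from them are unadjusted. Log2 CPM for correlations used a prior count of 2. The scripts were tested on simulated data. Alternatives were DESeq2 1.42.0, other size factors and filters, a fit of the 2 groups compared, 2 factors of RUVr or RUVs, written out in R, grouping by the second label field, and omission of each library in turn. P-values set differences between group means against the spread between these mice, which was estimated over all 12 libraries.

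The 10 genes and the other lists were chosen with earlier results of these data known. All 10 are named in every comparison. From each other list up to 6 genes with the smallest adjusted p among those called are named, and the 5 genes most correlated with Fkbp5 and with Tsc22d3. Of the chaperone and coregulator list, 1 further gene entered no count and is not reported here.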

Additional observations from a re-analysis of the deposited data

Results flagged for a closer look

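In 126 sets of 4 libraries (42 genes named from the lists, in 3 groups), 9 had 1 library whose gap to the nearest other exceeded Dixon's 95% critical value as a share of the group's range, and chance gives about 1 in 20. Of these, 2 were among the 30 sets of the 10 genes. Cdkn1a was 6.28 CPM in Sham-Ad lib library 4F, against 0.690 to 1.46 CPM in the other 3. Zbtb16 was 23.5 CPM in Sham-WM library 2F, against 4.28 to 7.53 CPM. Library 2F also stood highest in Sham-WM for Mt2, at 4.28 CPM against 1.22 to 1.64 CPM, and for Lcn2, at 46.0 CPM against 5.92 to 11.98 CPM. Library 4F stood highest in Sham-Ad lib for Lbp, at 223 CPM against 74.3 to 98.0 CPM, and lowest for Nr1d2, at 112.8 CPM against 134 to 137 CPM. Nr1d2 was lowest in Sham-WM in 16F, at 33.8 CPM against 59.5 to 63.4 CPM. Stip1 was lowest in Sham-Ad lib in 10F, at 51.7 CPM against 64.6 to 65.6 CPM. Srd5a2 was highest in Sham-WM in 9F, at 1.18 CPM against 0.844 to 0.867 CPM.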

How the results depend on the processing

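Of 630 refitted log2 fold changes of the 10 genes, 581 kept their direction and their side of the threshold, 33 changed direction, 6 gained a call and 10 lost one. The number of the 10 called in Sham-WM against Sham-Ad lib was 1 in the main fit, 2 with RUVr factors (Fkbp5 and Hsd11b1), 0 under the second label field, and between 0 and 2 with a library left out. In the fit of the 2 groups compared it was 1, but the gene was Tsc22d3 and not Fkbp5. In VSG against Sham-WM it was 0, then 2 with RUVr factors (Hsd11b1 and Nr3c1) and between 0 and 1 with a library left out. In VSG against Sham-Ad lib it was 0 in every fit. The cause was not tested.

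Grouping by the second label field gave in Sham-WM against Sham-Ad lib 0.22 for Fkbp5, -0.90 for Tsc22d3, -0.40 for Sgk1, -0.30 for Hsd11b1, -0.25 for Cdkn1a, -0.10 for Errfi1 and 1.88 for Zbtb16. In VSG against Sham-WM it gave -0.30 for Fkbp5, 1.18 for Tsc22d3, 0.57 for Sgk1, 0.15 for Hsd11b1, 0.68 for Cdkn1a, 0.51 for Errfi1 and -0.21 for Serpina6, and in VSG against Sham-Ad lib -0.15 for Hsd11b1 and 1.152 for Zbtb16. RUVs factors turned Hsd11b1 in VSG against Sham-WM to 0.16 and Serpina6 in VSG against Sham-Ad lib to 0.14. Errfi1 in VSG against Sham-Ad lib, near 0 throughout, was -0.0035 with DESeq2 and with its size factors, -0.016 without the filter and -0.012 with RUVr factors. With a library left out, VSG against Sham-Ad lib ran from -0.42 to 0.34 for Errfi1, from -0.031 to 0.27 for Hsd11b1 and from -0.30 to 0.10 for Serpina6, and VSG against Sham-WM from -0.86 to 0.28 for Cdkn1a and from -0.51 to 0.65 for Zbtb16. Over all genes, calls in VSG against Sham-Ad lib were 98 in the main fit, 1202 with DESeq2, 628 without the filter, 3016 with RUVr factors, 6 with RUVs factors and 0 in the fit of the 2 groups or with at least 10 counts in every library. Those in Sham-WM against Sham-Ad lib were 912, 1445 with DESeq2, 2193 with RUVr and 1723 with RUVs factors, and those in VSG against Sham-WM were 3509, 5491 with RUVr and 518 with RUVs factors. In that comparison RUVs factors also took the acute phase calls from 13 to 0, those of the 20 other receptor targets from 10 to 4 and those of glucocorticoid metabolism from 4 to 0. Calls of the 15 chaperones and coregulators there were 5, then 8 with DESeq2, 10 with RUVr and 3 with RUVs factors. No paired analysis was possible because the groups share no animal numbers. Depth limits Cdkn1a most, with 11 counts in its lowest library.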
